A study of Mus musculus with 12 samples.

Results

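Aminoacyl-tRNA synthetases are the enzymes that join each amino acid to its tRNA before translation. The genes described here are 36 of the 24453 genes of the count matrix: 20 cytosolic synthetases and 16 mitochondrial synthetases, taken by name, with a final 2 in the symbol marking the mitochondrial enzyme. *Gars* and *Kars* each encode a cytosolic and a mitochondrial form from the same gene, so they stand in the cytosolic set but serve both compartments. As background, both sets are encoded in the nucleus, and the mitochondrial enzymes are imported to charge the tRNAs that mtDNA encodes. Several cytosolic synthetases are held together in a multisynthetase complex by scaffold proteins, and many cytosolic synthetase genes are textbook targets of ATF4, the transcription factor of the integrated stress response, which cells engage when amino acids run short or mitochondria fail.

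The study asked how loss of PNPase (polynucleotide phosphorylase, encoded by *Pnpt1*) and of mtDNA alters transcription in mouse embryonic fibroblasts (MEFs). RNA-Seq was performed on 4 lines with 3 cultures each, 12 libraries in total, and all lines were grown with 50 µg/mL uridine. TM6 MEFs are *Pnpt1* neo-flox/neo-flox cells of strain C57BL6/J, immortalized with SV40 large T-antigen, untreated, and they carry PNPase and mtDNA. The rho0 MEFs are TM6 cells of the same genotype that lost mtDNA during 3 weeks in ditercalinium dichloride dihydrochloride at 750 ng/mL and were then regrown from 1 cell. PKO-1 and PKO-6 MEFs are PNPase knockout clones 1 and 6, made from neo-flox/neo-flox TM6 cells with adenoviral Cre and each regrown from 1 cell in medium with uridine. The study describes its PNPase knockout cells as lacking mtDNA too, so that against TM6 loss of PNPase and loss of mtDNA cannot be told apart. Every derived line is 1 clone (for TM6 the labels do not say), its replicates are cultures of that clone, and p-values measure the spread between cultures and not between independent clones. RNA was purified with TriZol or RNeasy, not stated for each sample. In bulk RNA, fewer cells with a transcript and less RNA per cell cannot be told apart. Libraries held 47164860 to 67991378 expected counts, and each synthetase had at least 230 counts in every library.

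The targeted gene was examined first. *Pnpt1* read 2832, 3242 and 3319.5 normalized counts in TM6 MEFs, 5051, 5251 and 5509.5 in rho0 MEFs, 1254, 1191 and 1276 in PKO-1 MEFs and 1897, 1720.4 and 2214 in PKO-6 MEFs, where a normalized count is a count scaled by TMM to the mean library size. Both knockout clones lay below TM6 without overlap, at log2 fold changes of -1.34 ± 0.086 (SE) and -0.69 ± 0.084, and rho0 lay above TM6 at 0.75 ± 0.083. Transcripts from the rest of the gene still count after Cre removes the floxed exon, so these counts follow the labels in direction but do not measure the deleted exon. Of 8 fibroblast markers, 7 reached 1 TPM (a transcript level corrected for length) in TM6, PKO-1 and PKO-6 MEFs and 6 in rho0 MEFs. *Thy1*, a surface marker of fibroblasts, was below 0.05 TPM in the 3 derived lines and at 0.07, 0.0 and 0.1 TPM in TM6. Summed fibroblast markers reached 6195 to 6381 TPM in TM6, 2828 to 2983 in rho0, 5801 to 5990 in PKO-1 and 2267 to 2609 in PKO-6 MEFs. By line mean *Vim* was the most abundant except in PKO-1, where *S100a4* was. In TM6 replicate 3 *S100a4* (2361.78 TPM) exceeded *Vim* (2290.0 TPM). The leukocyte marker *Ptprc* was below 0.05 TPM in all 4 lines, as were the epithelial markers *Krt5* and *Krt14*. Other markers of these lists passed 1 TPM. Epithelial *Krt18* had a mean of 19.43 TPM in PKO-1, 10.54 in rho0 and 6.02 in TM6, but 0.13 to 0.23 TPM in PKO-6 libraries. Epithelial *Epcam* reached a mean of 1.36 TPM in PKO-6. The macrophage marker *Cd68* passed 1 TPM in every line, with means from 2.72 TPM (PKO-1) to 5.29 TPM (PKO-6). Summed epithelial, leukocyte and endothelial markers did not pass 20.12, 6.14 and 1.00 TPM in any library. The fibroblast sum was lowest in rho0 and PKO-6, the lines in which cytosolic synthetases moved furthest, and its part in those results was not tested.

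The cytosolic set was expressed at a higher level than the mitochondrial set in every library. In TM6 MEFs the 20 cytosolic members summed to 2339 ± 43 TPM (SD, n = 3) and the 16 mitochondrial members to 261 ± 13 TPM. By member, the highest TPM in TM6 belonged to *Nars* (asparagine, 219 ± 9.8) and *Gars* (glycine, 214 ± 6.2), a difference within their spread, and the lowest to *Ears2* (glutamate, 2.09 ± 0.17) and *Nars2* (mitochondrial asparagine, 2.27 ± 0.16). *Ears2* (1.99 to 2.28 TPM) and *Nars2* (2.16 to 2.45 TPM) overlapped over the TM6 libraries, with *Ears2* the lower in each. *Iars2* (isoleucine, 44.5 ± 0.59 TPM) was the highest mitochondrial member in TM6 and stood beside *Cars* (cysteine, 43.9 ± 1.5 TPM), the lowest cytosolic member, a difference within their spread. The cytosolic sum was 4292 ± 93 TPM in rho0 MEFs and 3586 ± 168 TPM in PKO-6 MEFs, and 2554 ± 36 TPM in PKO-1 MEFs. The mitochondrial sum was 323 ± 8.0 TPM in rho0, 313 ± 4.0 TPM in PKO-6 and 387 ± 84 TPM in PKO-1 MEFs. The spread in PKO-1 came from *Lars2* (leucine), and without it the mitochondrial sum was 228 ± 3.4 TPM in TM6, 292 ± 7.8 in rho0, 279 ± 5.0 in PKO-6 and 264 ± 6.5 in PKO-1 MEFs. With *Lars2* left out, the ratio of the cytosolic to the mitochondrial sum was 9.99 to 10.5 in TM6, 14.4 to 14.9 in rho0, 9.40 to 9.85 in PKO-1 and 12.5 to 13.3 in PKO-6 MEFs. Libraries of rho0 and PKO-6 lay above all TM6 libraries in this ratio, and those of PKO-1 lay below. With *Lars2* kept, the mean ratio was 8.99 in TM6, 11.4 in PKO-6, 13.3 in rho0 and 6.79 ± 1.37 in PKO-1 MEFs.

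The sets were then contrasted by differential expression, where a DEG passed an adjusted p below 0.01 (edgeR quasi-likelihood test, Benjamini-Hochberg over 14026 tested genes) and an absolute log2 fold change above 0.5. All 36 members passed the filter on low counts. In rho0 against TM6, 11 of 20 cytosolic members were DEGs, all higher in rho0, beside 42.1% of all tested genes called, 20.7% higher and 21.4% lower. Of the 16 mitochondrial members, 7 were higher and 1 was lower in that comparison. The median log2 fold change was 0.61 for cytosolic and 0.45 for mitochondrial members, against 0.018 over all tested genes. In PKO-6 against TM6, 10 cytosolic members were higher and 2 lower, and 7 mitochondrial members were higher and 1 lower, beside 41.3% of all tested genes called, 21.9% higher and 19.4% lower. The medians were 0.49 for cytosolic, 0.40 for mitochondrial and 0.014 for all tested genes. In PKO-1 against TM6, 5 cytosolic and 5 mitochondrial members were DEGs, all higher in PKO-1, beside 34.3% of all tested genes called, 16.4% higher and 17.9% lower. These are 25% and 31.2% of the sets, below the share of all genes called in either direction and above the share of all genes called higher. There the median was 0.16 for cytosolic members and 0.31 for mitochondrial members, against 0.001 over all tested genes. With the median of each chromosome removed, as described below, 0 cytosolic and 4 mitochondrial members were DEGs in PKO-1 against TM6, beside 28.7% of all tested genes. Groups of normalized counts did not overlap for 31 of 36 members in rho0 against TM6 (72.8% of all tested genes), 31 in PKO-1 against TM6 (71.8%), 29 in PKO-6 against TM6 (71.9%) and 27 in PKO-1 against PKO-6 (66.5%). The 3 comparisons share the TM6 libraries and are not independent of each other.

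Library by library, the order of the sets differed between lines. Taking each library's median over the set of log2 (normalized count / TM6 mean), the cytosolic set stood at 0.52 to 0.73 in rho0, 0.44 to 0.55 in PKO-6 and 0.14 to 0.18 in PKO-1 libraries. On the same scale the mitochondrial set stood at 0.41 to 0.49 in rho0, 0.35 to 0.41 in PKO-6 and 0.28 to 0.34 in PKO-1 libraries. The cytosolic median exceeded the mitochondrial median in all 3 rho0 and all 3 PKO-6 libraries and was below it in all 3 PKO-1 libraries. The cytosolic minus the mitochondrial median was 0.112 to 0.244 in rho0, 0.092 to 0.137 in PKO-6 and -0.179 to -0.093 in PKO-1. Within TM6 it ran from -0.071 to 0.063. In rho0 the cytosolic median was 0.73 in replicate 1 against 0.521 and 0.568 in replicates 2 and 3. Replicate 1 also stood apart over all tested genes, with a chi-square per degree of freedom between its counts and those of replicates 2 and 3 of 79.46 and 60.11, against 4.38 between those 2. In PKO-6 it was 75.83 and 127.32 for replicate 3 against replicates 1 and 2, and 23.31 between those 2. With *Lars2* left out, the mitochondrial median was 0.42 to 0.50 in rho0, 0.41 to 0.51 in PKO-6 and 0.22 to 0.32 in PKO-1 libraries, so that in PKO-6 the sets came to lie closer together. The cytosolic medians in PKO-6 were 0.509, 0.548 and 0.438 against 0.471, 0.505 and 0.412, gaps no wider than those within TM6. The same held for PKO-1 replicate 2 (0.184 against 0.232). In the fitted log2 fold changes without *Lars2*, the cytosolic lead in PKO-6 was not kept, with medians of 0.495 for mitochondrial and 0.492 for cytosolic members, and 0.519 and 0.502 with chromosome medians removed.

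**Figure D1:**
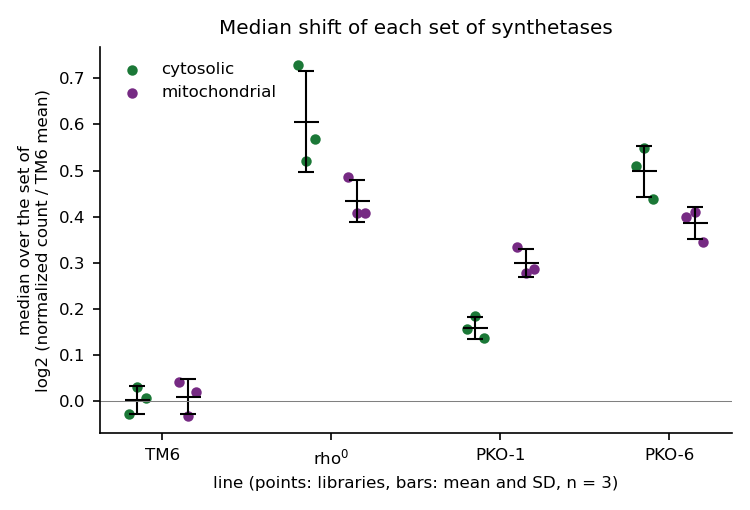
Median over the members of each set of log2 (normalized count / TM6 mean), vertical axis, for every library of the 4 lines, with points for libraries and bars for the mean and SD (n = 3). The cytosolic set reaches 0.52 to 0.73 in rho0 libraries and 0.14 to 0.18 in PKO-1 libraries, while the mitochondrial set lies at 0.41 to 0.49 and 0.28 to 0.34.

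In rho0 MEFs the widest changes were in the tryptophan, leucine and asparagine enzymes. *Wars*, which charges tryptophan, read 3883, 4088 and 3891 normalized counts in TM6, 21341, 18202 and 19166 in rho0, 7327, 7177 and 6922 in PKO-1 and 14974, 13876 and 13126 in PKO-6 MEFs. *Lars*, the leucine enzyme and a subunit of the multisynthetase complex, read 10942, 11376 and 11170.0 in TM6, 50073, 46213 and 47376 in rho0, 18336, 18593 and 17077 in PKO-1 and 33600.5, 33499 and 32239 in PKO-6 MEFs. For *Nars*, the asparagine enzyme, the counts were 16888, 18177 and 18449 in TM6, 54267, 48514 and 51401 in rho0, 27107, 26664 and 24788 in PKO-1 and 43394, 42832 and 43346 in PKO-6 MEFs. For all 3 genes the 4 lines fell into the same order without overlap, TM6 lowest, then PKO-1, PKO-6 and rho0. *Wars* was 4.95-fold higher in rho0 than in TM6 (log2 2.31 ± 0.069, SE, adjusted p = 4.76e-12), 3.54-fold higher in PKO-6 (log2 1.82 ± 0.068) and 1.81-fold higher in PKO-1 (log2 0.85 ± 0.067, adjusted p = 8.94e-08), with 3 of 3 libraries above TM6 in each. The log2 fold changes of *Lars* were 2.10 ± 0.057 in rho0, 1.57 ± 0.056 in PKO-6 and 0.69 ± 0.055 in PKO-1. Those of *Nars* were 1.53 ± 0.062, 1.28 ± 0.062 and 0.55 ± 0.061 in the same order. *Wars* lies on chromosome 12 and *Lars* and *Nars* on chromosome 18, where the median over all tested genes was also raised in PKO-1, by 0.56 on chromosome 12 and 0.42 on chromosome 18. With chromosome medians removed, PKO-1 against TM6 gave 0.30 for *Wars*, 0.27 for *Lars* and 0.14 for *Nars*, none of them a DEG, and rho0 against TM6 still gave 1.76, 1.68 and 1.10. Calls near the threshold are also counted over 21 settings, made up of the fit described, 12 fits with 1 library left out and 8 alternatives in scaling, filter, test or libraries fitted. With libraries left out 1 at a time, here and for the members that follow, *Nars* in PKO-1 was under the fold change threshold without TM6 replicate 1 (0.485).

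**Figure D2:**
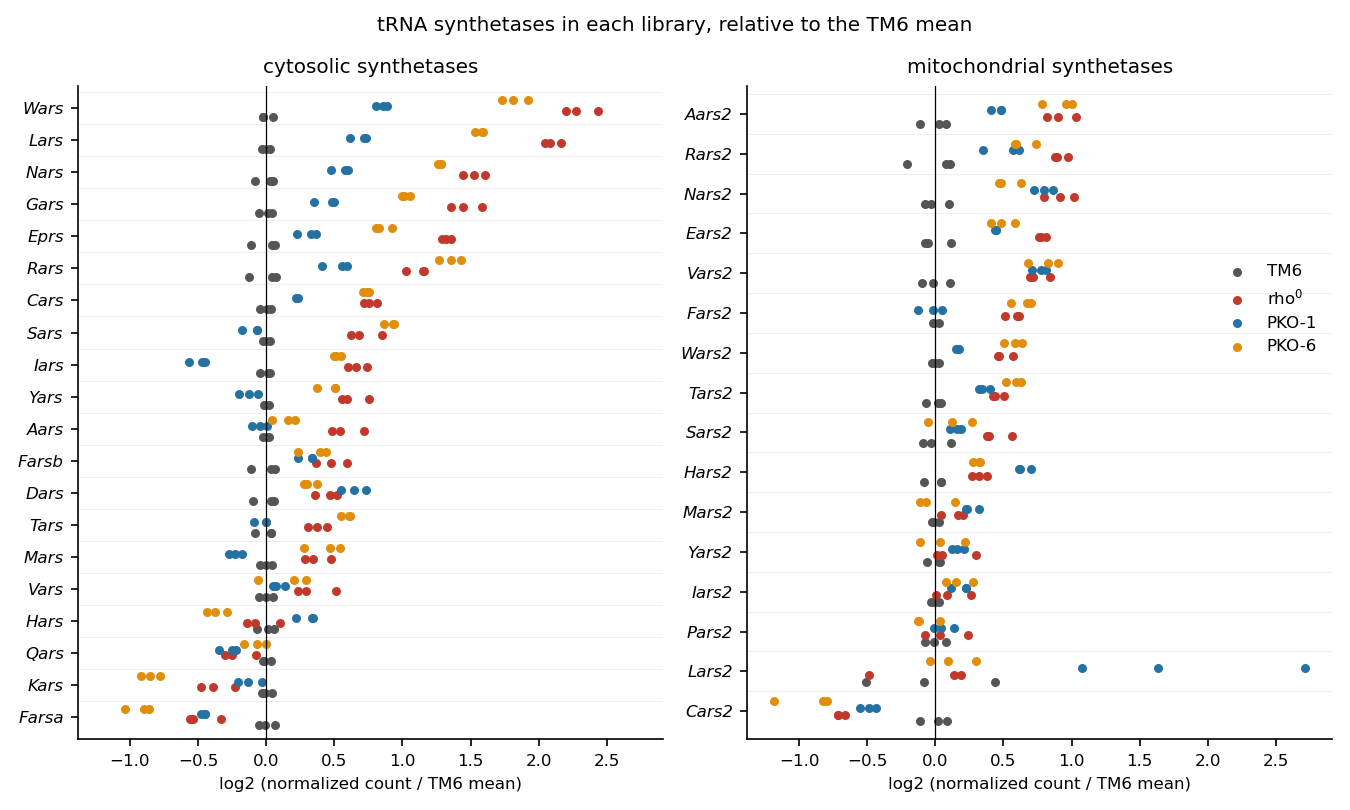
Each point is 1 library, its horizontal position log2 (normalized count / TM6 mean), for the 20 cytosolic (left) and 16 mitochondrial (right) synthetases, ordered by the rho0 change and coloured by line (n = 3 each). *Wars*, *Lars* and *Nars* show the widest separation of rho0 from TM6 (log2 2.31, 2.10 and 1.53), *Cars2* lies to the left of TM6 in each derived line, and the PKO-1 points of *Lars2* are spread over more than those of any other member.

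A further group rose in rho0 and PKO-6 MEFs. *Gars*, the glycine enzyme of both compartments, read 15010.0, 16041 and 15741 normalized counts in TM6, 46655, 39971 and 42471 in rho0, 22051, 21762 and 19945 in PKO-1 and 31397, 32468 and 31141 in PKO-6 MEFs. *Eprs*, which joins glutamate and proline enzymes in 1 polypeptide, read 17287, 19205 and 19486 in TM6, 46639, 45641 and 47871 in rho0, 24020.1, 23461 and 21819 in PKO-1 and 33174, 32557 and 35468 in PKO-6 MEFs. *Rars*, for arginine, read 7443, 8358 and 8525 in TM6, 18134, 16556 and 18029 in rho0, 12242, 11901 and 10778 in PKO-1 and 19511, 20754 and 21879 in PKO-6 MEFs. TM6 was lowest and PKO-1 next for each of the 3 genes, with no overlap between lines, and *Rars* was the gene of these whose PKO-6 counts exceeded those of rho0. In edgeR the log2 fold change of *Gars* was 1.46 ± 0.066 in rho0 (adjusted p = 2.64e-10, 3 of 3 libraries above TM6) and 1.02 ± 0.066 in PKO-6, and its PKO-1 value of 0.45 ± 0.065 was under the fold change threshold. *Eprs* gave 1.32 ± 0.064, 0.85 ± 0.063 and, under the threshold, 0.31 ± 0.063. *Rars* gave 1.12 ± 0.072 in rho0, 1.35 ± 0.072 in PKO-6 and 0.52 ± 0.071 in PKO-1, and the PKO-1 call was lost without TM6 replicate 1 (0.433), rho0 replicates 1, 2 and 3 (0.491), PKO-1 replicate 1 (0.485) or PKO-6 replicates 1 and 2 (0.49 to 0.491). That call was made in 9 of 21 settings, and was lost also with each of the DESeq2 Wald test, DESeq2 size factors, the compared lines alone, *Rn45s* left out and chromosome medians removed (0.481 to 0.498). Serine's *Sars* and isoleucine's *Iars* separated the clones. *Sars* read 12448, 12874 and 12637 in TM6, 22772, 19480.4 and 20269 in rho0, 12053, 12097 and 11216 in PKO-1 and 24224, 24121 and 23057 in PKO-6 MEFs. *Iars* read 17586, 18306 and 18508 in TM6, 30307, 27431 and 28689 in rho0, 13085, 13307 and 12249 in PKO-1 and 25925, 26577 and 25629 in PKO-6 MEFs. PKO-1 was the lowest line for both genes, below TM6 without overlap, and rho0 and PKO-6 lay above TM6. Against TM6 *Sars* was a DEG in rho0 (0.72 ± 0.062) and PKO-6 (0.91 ± 0.062), while its PKO-1 value was -0.10 ± 0.062. The *Iars* values were 0.67 ± 0.055 in rho0, 0.52 ± 0.055 in PKO-6 and -0.49 ± 0.055 in PKO-1. The PKO-6 call of *Iars*, made in 12 of 21 settings, was lost without TM6 replicate 1 (0.465), rho0 replicates 1, 2 and 3 (0.487 to 0.488) or PKO-6 replicates 1 and 2 (0.474 to 0.494) and with each of the compared lines alone, *Rn45s* left out and chromosome medians removed (0.439 to 0.492). Its PKO-1 value passed the threshold in 13 of 21 settings: without TM6 replicate 1 (-0.546), rho0 replicates 1, 2 and 3 (-0.525 to -0.524), PKO-1 replicates 1 and 2 (-0.516 to -0.504) or PKO-6 replicates 1 and 2 (-0.525 to -0.524), and with each of the DESeq2 Wald test, DESeq2 size factors, the compared lines alone, no filter on low counts and *Rn45s* left out (-0.524 to -0.513). It was nearer to 0, at -0.22, with chromosome medians removed. Among the rest, *Cars* was higher in rho0 (0.76) and PKO-6 (0.74), *Aars* (alanine, 0.59) and *Yars* (tyrosine, 0.64) in rho0, and *Tars* (threonine, 0.59) in PKO-6. The *Aars* call was lost without rho0 replicate 1 (0.497), and *Yars* in PKO-6 (0.46) passed the threshold without PKO-6 replicate 3 (0.503) and with total count scaling (0.515).

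*Dars*, which charges aspartate, was the cytosolic member raised in PKO-1 but not called in the other derived lines. *Dars* read 4691, 5143 and 5227 normalized counts in TM6, 7216, 6433 and 6934 in rho0, 8322, 7845 and 7361 in PKO-1 and 6078, 6182 and 6505 in PKO-6 MEFs. Its log2 fold change was 0.64 ± 0.063 in PKO-1, 0.45 ± 0.063 in rho0 and 0.32 ± 0.063 in PKO-6, and all 9 libraries of derived lines lay above the TM6 range. PKO-1 against PKO-6, tested directly, gave 0.33 ± 0.063, which was not a DEG. The PKO-1 value was 0.46 with chromosome medians removed, and the call was lost. The cytosolic members that fell were *Kars*, the lysine enzyme of both compartments, and *Farsa*, the catalytic subunit of the phenylalanine enzyme, each in PKO-6. *Kars* read 11321, 11867 and 11449 in TM6, 9844, 8301 and 8808 in rho0, 10553, 11276 and 10028 in PKO-1 and 6388, 6741 and 6095 in PKO-6 MEFs, so that every derived library was under the TM6 range. *Farsa* read 3432, 3165 and 3268 in TM6, 2614, 2237 and 2263 in rho0, 2414, 2407 and 2361 in PKO-1 and 1768, 1811 and 1599.8 in PKO-6 MEFs, again with every derived library under the TM6 range. The PKO-6 values were -0.85 ± 0.068 for *Kars* and -0.93 ± 0.066 for *Farsa*, and in rho0 they were -0.36 ± 0.067 and -0.47 ± 0.066, under the threshold. In rho0 *Farsa* passed the threshold without TM6 replicate 2 (-0.501) or rho0 replicate 1 (-0.563). Both lie on chromosome 8, whose median over all tested genes was -0.43 in PKO-6, and with chromosome medians removed *Kars* was at -0.42, no longer a DEG, and *Farsa* at -0.50. *Farsb*, the partner subunit of *Farsa*, lies on chromosome 1 and gave 0.36 ± 0.072 in PKO-6 and 0.48 ± 0.072 in rho0, without being called, though the rho0 value passed the threshold without TM6 replicate 2 (0.511) or rho0 replicate 2 (0.512). *Mars* (methionine), *Qars* (glutamine), *Vars* (valine), *Hars* (histidine) and *Farsb* were DEGs in none of the 3 comparisons with TM6, with log2 values from -0.36 (*Hars* in PKO-6) to 0.48 (*Farsb* in rho0), except that *Mars* passed the threshold in PKO-6 without PKO-6 replicate 3 (0.506).

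Cytosolic members were grouped by what is known of them, and over all tested genes 20.7% were higher in rho0, 21.9% in PKO-6 and 16.4% in PKO-1 than in TM6, with 42.1%, 41.3% and 34.3% called in either direction. Of 8 subunits of the multisynthetase complex, 4 were higher in rho0, 4 in PKO-6 and 3 in PKO-1, with 1 lower in PKO-6, and the median log2 fold changes were 0.56, 0.48 and 0.094. Outside the complex, 7, 6 and 2 of 12 were higher and 1 lower in PKO-6, with medians of 0.61, 0.53 and 0.16. The split by textbook ATF4 targets was wider, though these lists were chosen with earlier results of these data known. Of the 13 textbook targets, 10 were higher in rho0 and 9 in PKO-6, with medians of 0.72 and 0.74, and all 13 had positive log2 fold changes in both, though *Vars* in PKO-6 was at -0.04 with chromosome medians removed. Of the 7 others, *Rars* alone was higher in rho0 and in PKO-6, 2 were lower in PKO-6, and the medians were -0.035 and -0.076. In PKO-1 against TM6 the targets had 3 DEGs and a median of 0.09, and the others 2 DEGs and a median of 0.30. By catalytic fold, with *Eprs* left out because it holds both, 6 of 9 class I and 4 of 10 class II enzymes were higher in rho0, and 5 and 4 in PKO-6, where 2 of class II were lower. With chromosome medians removed, 6 of class I and 5 of class II were higher in rho0, and 4 and 5 in PKO-6, where the order of the classes thus turned. After removal of chromosome medians, 5 and 3 members of the complex and 7 and 7 outside it were higher in rho0 and PKO-6, as were 11 and 9 of the textbook targets, beside 18.9% and 20.6% of all tested genes. In PKO-1 against TM6 no cytosolic member was then called, beside 28.7% of all tested genes. The PKO-1 medians were then 0.12 in the complex, 0.088 outside it, 0.11 for the targets and 0.12 for the others.

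Among mitochondrial synthetases the changes were smaller and reached 0.92 on the log2 scale in rho0 and PKO-6. *Aars2*, for mitochondrial alanine, read 1255, 1211 and 1102 normalized counts in TM6, 2435, 2099 and 2217 in rho0, 1583, 1658 and 1666 in PKO-1 and 2317, 2379.5 and 2046 in PKO-6 MEFs. *Vars2*, for valine, read 1863, 1616 and 1713 in TM6, 3107, 2799 and 2846 in rho0, 2838, 2961 and 3042 in PKO-1 and 3073, 3239 and 2770.0 in PKO-6 MEFs. *Rars2*, for arginine, read 858, 1045 and 1069 in TM6, 1843, 1825 and 1944 in rho0, 1519, 1473 and 1265 in PKO-1 and 1497, 1484 and 1652 in PKO-6 MEFs. Every derived library lay above the TM6 range for these 3 genes, and for *Vars2* the 3 derived lines overlapped each other. *Vars2* was a DEG in each line, at 0.75 ± 0.07 in rho0, 0.81 ± 0.07 in PKO-6 (adjusted p = 1.64e-07 by edgeR, 3 of 3 libraries above TM6) and 0.77 ± 0.07 in PKO-1. Its rho0 value was 0.501 with chromosome medians removed, still a DEG. *Aars2* rose in rho0 (0.92 ± 0.073) and PKO-6 (0.92 ± 0.073) and was at 0.46 ± 0.074 in PKO-1, under the threshold. *Rars2* gave 0.92 ± 0.088, 0.64 ± 0.088 and 0.52 ± 0.089 in rho0, PKO-6 and PKO-1, and its PKO-1 call was lost without TM6 replicate 1 (0.394), rho0 replicates 1, 2 and 3 (0.488), PKO-1 replicates 1 and 2 (0.469 to 0.493) or PKO-6 replicates 1 and 2 (0.488). The *Rars2* call in PKO-1 was made in 8 of 21 settings and was lost also with each of the DESeq2 Wald test, DESeq2 size factors, the compared lines alone, no filter on low counts and *Rn45s* left out (0.488 to 0.498). *Nars2*, for asparagine, read 287, 261 and 253 in TM6, 465, 541 and 505 in rho0, 487, 464 and 441 in PKO-1 and 370.1, 414 and 372 in PKO-6 MEFs. *Ears2*, for glutamate, read 475, 422 and 415 in TM6, 751, 741 and 767 in rho0, 596, 591 and 596 in PKO-1 and 612, 657 and 582 in PKO-6 MEFs. All derived libraries of both genes were above TM6, with rho0 the highest line for *Ears2* and rho0 and PKO-1 overlapping for *Nars2*. *Nars2* was a DEG in rho0 (0.91 ± 0.091), PKO-1 (0.80 ± 0.091) and PKO-6 (0.53 ± 0.091), the last in 14 of 21 settings, not without TM6 replicate 3 (0.489), rho0 replicates 1, 2 and 3 (0.491 to 0.492) or PKO-6 replicate 2 (0.44), nor with each of the compared lines alone and *Rn45s* left out (0.493 to 0.497). *Ears2* was called in rho0 (0.78 ± 0.075), and its PKO-6 value of 0.495 passed the threshold in 4 of 21 settings, without TM6 replicate 1 (0.523) or PKO-6 replicate 3 (0.536) and with each of chromosome medians removed and total count scaling (0.525 to 0.548). *Fars2*, for phenylalanine, read 701, 696 and 719 in TM6, 1082, 1007 and 1069 in rho0, 696, 729.6 and 647 in PKO-1 and 1148, 1123 and 1035 in PKO-6 MEFs. PKO-1 overlapped TM6 here while rho0 (0.58 ± 0.067) and PKO-6 (0.64 ± 0.066) were DEGs. *Wars2* (tryptophan) was higher in PKO-6 (0.58) and just past the threshold in rho0 (0.502), and *Tars2* (threonine) was higher in PKO-6 (0.58). The *Wars2* call in rho0 was made in 7 of 21 settings, and was lost without TM6 replicates 1 and 2 (0.481 to 0.487), rho0 replicate 2 (0.442), PKO-1 replicates 1, 2 and 3 (0.499) or PKO-6 replicates 1, 2 and 3 (0.481 to 0.499) and with each of the DESeq2 Wald test, DESeq2 size factors, the compared lines alone, no filter on low counts and *Rn45s* left out (0.479 to 0.498). *Cars2*, for cysteine, was the mitochondrial member that fell, with counts of 849, 740.4 and 809 in TM6, 486, 488 and 505 in rho0, 545, 572 and 592 in PKO-1 and 451, 460.2 and 352 in PKO-6 MEFs. All derived libraries were below TM6, at -0.70 ± 0.098 in rho0, -0.92 ± 0.098 in PKO-6 and -0.49 ± 0.097 in PKO-1, the last under the threshold. In PKO-1 *Cars2* was called in 12 of 21 settings, without TM6 replicate 2 (-0.541), rho0 replicates 1, 2 and 3 (-0.52), PKO-1 replicate 3 (-0.515) or PKO-6 replicates 1 and 2 (-0.52) and with each of the DESeq2 Wald test, DESeq2 size factors, the compared lines alone, no filter on low counts and *Rn45s* left out (-0.52 to -0.507). *Cars2* lies on chromosome 8, and with chromosome medians removed its PKO-6 value was -0.50, just short of a call. *Iars2*, *Mars2*, *Pars2* (proline), *Sars2* (serine) and *Yars2* (tyrosine) were DEGs in none of the 4 comparisons by edgeR.

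*Lars2*, the mitochondrial leucine enzyme, varied more between replicates than any other member. It read 2781, 3722 and 5344 normalized counts in TM6, 4511, 2818 and 4339 in rho0, 12249, 8319 and 25961 in PKO-1 and 4854, 4206 and 3840.4 in PKO-6 MEFs. PKO-1 libraries were all above the others, with replicate 3 far above replicates 1 and 2, and the remaining lines overlapped. The SD was 59.7% of the mean in PKO-1, 32.9% in TM6, 24.0% in rho0 and 11.9% in PKO-6, and the largest for any other member and line was 14.3%. The PKO-1 log2 fold change was 1.98 ± 0.35 (edgeR, adjusted p = 0.000201, 3 of 3 libraries above TM6) and was 1.38 without PKO-1 replicate 3, remaining a DEG under each library left out. Its values in rho0 (-0.02 ± 0.34) and PKO-6 (0.13 ± 0.34) were not called. With both clones pooled in a fit of 3 groups, *Lars2* in PKO against TM6 was at 1.33 ± 0.59 and was not called. The cause of its spread between PKO-1 cultures was not tested. Without *Lars2*, 4 of 15 mitochondrial members were DEGs in PKO-1 against TM6, and 1 of 15 in PKO-1 against PKO-6, shares below the 34.3% and 29.1% of all tested genes called in either direction. The 4 in PKO-1 against TM6 (26.7%) were all higher, above the 16.4% of all tested genes called higher.

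*Hars* and *Hars2* are neighbours on chromosome 18, *Hars* on the minus strand (chr18:36766528-36783205, GRCm38) and *Hars2* on the plus strand (chr18:36783209-36792560), with 5′ ends 3 bases apart in the annotation of the deposited values. *Hars* read 6344, 6931 and 6709 normalized counts in TM6, 7138, 6058 and 6309 in rho0, 8452, 8389 and 7754 in PKO-1 and 5137, 5450.3 and 4938 in PKO-6 MEFs. *Hars2* read 1076, 988 and 1077 in TM6, 1361, 1309.7 and 1262 in rho0, 1699.9, 1611 and 1601 in PKO-1 and 1313, 1305 and 1271 in PKO-6 MEFs. PKO-1 was the highest line for both genes, but in PKO-6 *Hars* was below TM6 and *Hars2* above it, each without overlap. Neither was a DEG in rho0 or PKO-6, and in PKO-1 *Hars2* was called at 0.65 ± 0.055 and *Hars* was at 0.30 ± 0.067. The median of chromosome 18 in PKO-1 was 0.42, and with chromosome medians removed *Hars2* was at 0.23 and not called, while *Hars* in PKO-6 was called lower at -0.70. The same removal turned the sign of *Hars* in PKO-1, from 0.30 to -0.117, and of *Hars2* in PKO-6, from 0.31 to -0.032, and rho0, from 0.32 to -0.1. Annotated transcripts of *Hars* and *Hars2* share exact runs of at most 195 bases on opposite strands and 26 bases on the same strand, in both cases the longest of 13 pairs compared (median 13 bases on the same strand). The libraries were made strand-specific, but whether strand was used in counting is not stated, and its part in these counts was not tested.

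Pairs of enzymes for the same amino acid were compared by the ratio of their TPM. The *Wars* to *Wars2* ratio was 6.16 ± 0.26 (SD, n = 3) in TM6, 21.8 ± 2.5 in rho0, 14.7 ± 1.3 in PKO-6 and 9.87 ± 0.38 in PKO-1 MEFs. For *Cars* to *Cars2* it was 3.03 ± 0.16, 8.35 ± 0.39, 9.72 ± 1.4 and 4.99 ± 0.21 in the same order. In both pairs every derived line exceeded TM6 by more than the replicate spread. The opposite held for *Aars* to *Aars2*, at 15.8 ± 0.83 in TM6, 12.5 ± 0.2 in rho0, 9.21 ± 0.21 in PKO-6 and 11.1 ± 0.56 in PKO-1 MEFs. *Vars* to *Vars2* likewise went from 13.1 ± 0.79 in TM6 to 9.89 ± 0.47, 8.31 ± 0.39 and 8.2 ± 0.4 in the same order. Over 13 pairs with the same root symbol, the cytosolic gene had the larger log2 fold change in 9 for rho0, 10 for PKO-6 and 3 for PKO-1 against TM6. Some of these pairs lay close together. In PKO-1 the 3 were *Cars*, *Wars* and *Rars*, but *Rars* (0.522 ± 0.071) and *Rars2* (0.519 ± 0.089) differed by less than their SE, and their TPM ratio was 7.1 ± 0.35 in TM6 and 7.1 ± 0.23 in PKO-1. In PKO-6 *Tars* (0.592 ± 0.055) and *Tars2* (0.579 ± 0.05) also differed by less than their SE. With chromosome medians removed the order turned for *Rars* and *Rars2* in PKO-1 (0.48 against 0.56) and, in rho0, for *Aars* and *Aars2* (0.77 against 0.67) and *Tars* and *Tars2* (0.76 against 0.63).

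The clones were compared directly, since they carry the same deletion and differ as clones. In PKO-1 against PKO-6, 12 cytosolic members were lower and 2 higher in PKO-1, beside 29.1% of all tested genes called, 17.6% lower and 11.5% higher. Called cytosolic members thus made up 70.0% of the set. Of the mitochondrial members 2 (12.5%) were called, *Lars2* higher (1.85 ± 0.35) and *Fars2* lower (-0.67 ± 0.067) in PKO-1. The median log2 fold change was -0.56 for cytosolic and 0.024 for mitochondrial members, against -0.012 over all tested genes. The largest cytosolic differences were in *Iars* (-1.02 ± 0.056, adjusted p = 2.73e-09 in edgeR), *Sars* (-1.01 ± 0.062) and *Wars* (-0.97 ± 0.066), in each of which the 3 PKO-1 libraries lay below the 3 PKO-6 libraries. *Kars* (0.73 ± 0.068) and *Hars* (0.66 ± 0.067) were higher in PKO-1. All 13 textbook ATF4 targets had negative values, except that *Vars* was at 0.016 without PKO-6 replicate 2, and 11 of them were DEGs. That list was chosen with earlier results of these data known. With chromosome medians removed, *Mars* (-0.477), *Tars* (-0.481), *Yars* (-0.428), *Kars* (0.415) and *Fars2* (-0.317) were no longer DEGs and *Aars* (-0.501) was called. Near the threshold, calls were gained for *Aars2* without PKO-6 replicate 3 (-0.52), *Cars2* without PKO-6 replicate 2 (0.505) and *Farsa* without PKO-6 replicate 2 (0.51), and that of *Cars* (-0.51) was lost without PKO-6 replicate 1 (-0.499).

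Whole chromosomes differed between lines, and synthetases were read against them. Over all tested genes the median log2 fold change on chromosome 12 was 0.55 in rho0, 0.53 in PKO-6 and 0.56 in PKO-1, and on chromosome 18 it was 0.43, 0.34 and 0.42. On chromosome 8 it was -0.18, -0.43 and -0.11, on chromosome 9 0.039, 0.007 and -0.39, and on chromosome 13 0.039, 0.083 and -0.27. When each chromosome's median was removed from each line through offsets in edgeR, cytosolic DEGs numbered 12 in rho0, 12 in PKO-6 and 0 in PKO-1, where 5 had been called before. Of all tested genes 38.5%, 38.4% and 28.7% were called under the same offsets. The adjusted p of *Wars* in PKO-1 was at most 0.00166 over 21 settings, this removal among them, so its call was lost on the size of the fold change (0.30). *Dars* and *Rars* stood at 0.46 and 0.48 there, near the threshold. Mitochondrial DEGs then numbered 9 in rho0, 8 in PKO-6 and 4 in PKO-1, the last 4 of 16 and a smaller share than that of all genes called in either direction. All 4 were higher in PKO-1, a larger share than the 13.5% of all tested genes called higher. By member, removal ended the calls of *Yars* in rho0 (0.483) and of *Iars* (0.439), *Kars* (-0.422) and *Cars2* (-0.497) in PKO-6. It made DEGs of *Mars* (0.548), *Tars* (0.755) and *Tars2* (0.625) in rho0, and of *Aars* (0.566), *Ears2* (0.525) and *Hars* (-0.704) in PKO-6. In PKO-1 against PKO-6 the offsets left 11 cytosolic DEGs and 1 mitochondrial DEG, beside 25.9% of all tested genes, *Fars2* on chromosome 13 going to -0.32 and *Iars* on the same chromosome to -0.66. *Tars* in rho0 stood at 0.38 before and 0.76 after removal. Whether gene dosage differs between the lines was not tested.

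**Figure D3:**
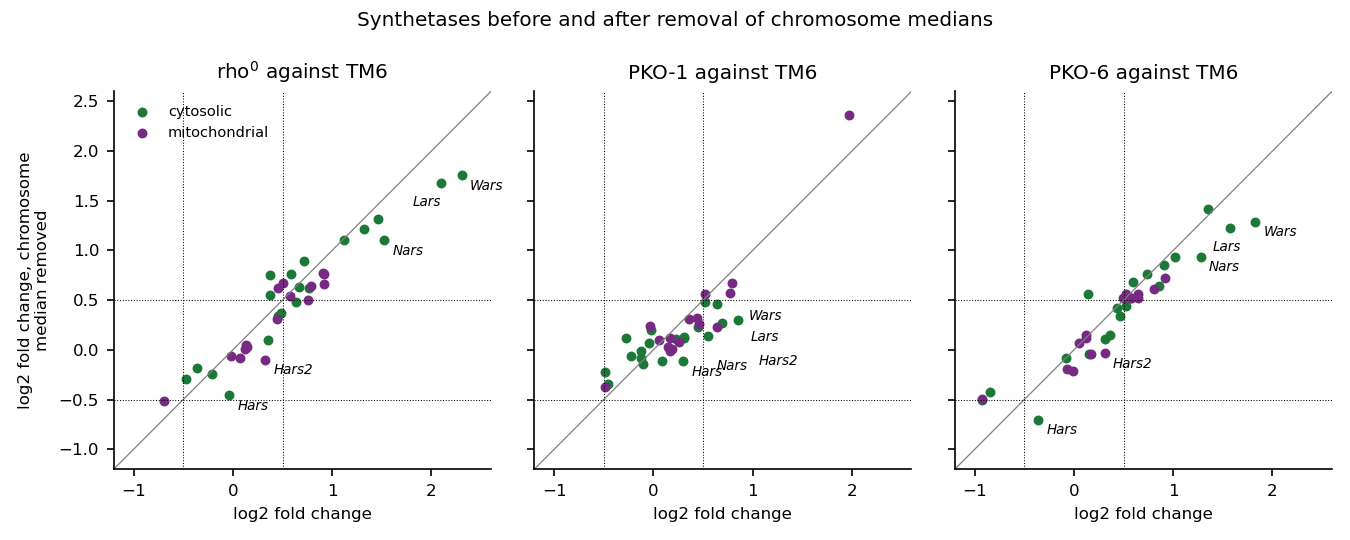
Log2 fold change of each synthetase against TM6 (horizontal axis) and the same after the median of its chromosome was removed (vertical axis), 1 panel per derived line, with dotted lines at the fold change threshold of 0.5 and members on chromosomes 12 and 18 named. In PKO-1, *Wars* goes from 0.85 to 0.30 and *Lars* from 0.69 to 0.27, whereas in rho0 they go from 2.31 to 1.76 and from 2.10 to 1.68.

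Genes that act beside the synthetases were taken from lists, whose counts stand beside 42.1% of all tested genes called in rho0, 41.3% in PKO-6 and 34.3% in PKO-1 against TM6 (20.7%, 21.9% and 16.4% higher). The 3 scaffold proteins of the multisynthetase complex, *Aimp1*, *Aimp2* and *Eef1e1*, were not called in the 3 comparisons with TM6, with log2 values from -0.49 to 0.33, and *Aimp2* was near the threshold in rho0 (-0.49 ± 0.082) and PKO-6 (-0.47 ± 0.082). In rho0 *Aimp2* was called lower without TM6 replicate 1 (-0.509), rho0 replicate 1 (-0.586) or PKO-6 replicates 1 and 2 (-0.508 to -0.507), and with the compared lines alone (-0.511) and *Rn45s* left out (-0.504). In PKO-6 it was called lower without TM6 replicate 1 (-0.508), rho0 replicates 1, 2 and 3 (-0.506 to -0.505) or PKO-6 replicate 2 (-0.601), and with the compared lines alone (-0.501), *Rn45s* left out (-0.504) and chromosome medians removed (-0.531), and in PKO-1 with chromosome medians removed (-0.508). Of 8 editing and synthetase-like genes, 3 were higher in rho0, and 2 were higher and 1 lower in PKO-6, the same numbers as in PKO-1. *Tarsl2*, a cytosolic threonine synthetase paralog, was the gene that fell, at -0.66 ± 0.08 in PKO-1 and -0.71 ± 0.08 in PKO-6. Of the 4 genes for mitochondrial glutaminyl-tRNA amidation and formylation, 1 was higher in rho0, 2 in PKO-6 and 1 in PKO-1, with *Gatb*, an amidotransferase subunit, called in each (0.91, 1.12 and 0.66). Cytosolic elongation factors had 2 higher and 1 lower of 7 in rho0, 2 lower in PKO-6, and log2 values from -0.45 to 0.28 in PKO-1, under the threshold. Of the 2 higher in rho0, *Eef1b2* was not called with chromosome medians removed (0.495), nor *Eef1a1* without TM6 replicate 1 (0.499) or rho0 replicate 1 (0.453). *Eef1d*, a subunit of the exchange factor of eEF1A, fell in rho0 (-0.58 ± 0.068), and *Eef2k*, the kinase of eEF2, fell in PKO-6 (-0.79 ± 0.06). *Eef1d* was at -0.201 in rho0 with chromosome medians removed and no longer called, while *Eef2k* in PKO-1 (-0.57) and *Tarsl2* in rho0 (-0.57) were called lower there, the last also without TM6 replicate 1 (-0.504). Among 10 mitochondrial translation factors, 3 were called in rho0, 2 in PKO-6 and 2 in PKO-1. Their shares of 30%, 20% and 20% were smaller than over all genes in the fit of all libraries without offsets. With chromosome medians removed, 4, 2 and 2 of the 10 were called, beside 38.5%, 38.4% and 28.7% of all tested genes. The share in rho0 was then not smaller than over all genes. *Mtrf1*, a mitochondrial release factor, read 112, 123 and 121 normalized counts in TM6, 1.94, 3.32 and 1.12 in rho0, 8.33, 3.2 and 9.31 in PKO-1 and 1.64, 2.07 and 0 in PKO-6 MEFs, and was a DEG in each derived line, all of whose libraries were far below TM6. Of 12 genes for mitochondrial tRNA processing and modification, 4 were higher in rho0, 4 were higher and 1 lower in PKO-6, and 4 were higher and 2 lower in PKO-1. Of the 12, 4 were called with chromosome medians removed in rho0, 1 in PKO-6 and 1 in PKO-1, beside 38.5%, 38.4% and 28.7% of all tested genes. Of 10 genes for tRNA transcription and export, *Xpot*, the tRNA exportin, was the DEG in rho0 (1.29 ± 0.053) and in PKO-6 (1.21 ± 0.053), and in PKO-1 *Xpot* was at 0.17 ± 0.053. Over the 21 settings the numbers called in rho0, PKO-6 and PKO-1 were 3 to 5, 3 to 4 and 2 to 4 for the editing list, 3 to 4, 1 to 3 and 2 to 4 for the translation factors and 4 to 5, 1 to 5 and 1 to 6 for tRNA processing. In rho0 and PKO-6 they were 1 to 3 and 2 for amidation and formylation, 1 to 3 and 2 for the elongation factors and 1 and 1 to 3 for tRNA transcription and export.

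The ATF4 pathway is given as context for the cytosolic set. Of 10 genes, 9 were higher in rho0, 9 in PKO-6 and 4 in PKO-1, with medians of 1.81, 1.64 and 0.41, beside 20.7%, 21.9% and 16.4% of all tested genes higher. *Trib3*, a pseudokinase, read 1006, 872 and 898 normalized counts in TM6, 14169.9, 11747 and 11929 in rho0, 2732, 2708 and 2509 in PKO-1 and 10866, 10497 and 9261 in PKO-6 MEFs. *Sesn2*, a leucine-binding stress protein, read 1174, 1009.8 and 1045 in TM6, 7801, 6382 and 6715 in rho0, 2842, 2896 and 2670.3 in PKO-1 and 7714, 8126 and 6581 in PKO-6 MEFs. Both were lowest in TM6 and higher in PKO-1 without overlap, and rho0 and PKO-6 exceeded PKO-1. Their log2 fold changes were 3.77 ± 0.093, 3.46 ± 0.092 and 1.52 ± 0.089 for *Trib3* and 2.69 ± 0.096, 2.80 ± 0.096 and 1.38 ± 0.094 for *Sesn2* in rho0, PKO-6 and PKO-1. In PKO-1 against PKO-6, 9 of the 10 were lower, beside 17.6% of all tested genes. *Ddit3*, a member of the list that overlaps *Mars* by 68 bases on the opposite strand, was at 2.18 ± 0.082 in rho0 and 0.13 ± 0.082 in PKO-1. In PKO-6 *Ddit3* read 5093, 4284 and 4349 normalized counts, against 1068, 963 and 1016 in TM6. Whether reads of *Ddit3* and *Mars* were kept apart was not tested.

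Promoters were read from a RefSeq table for build GRCm38.p6, which holds 250 bases before and 50 bases after each gene start, and 26 of the 36 members matched it by symbol. *Cars*, *Hars*, *Lars*, *Mars*, *Nars*, *Rars*, *Vars*, *Wars*, *Hars2* and *Pars2* were unmatched. Both strands were searched for TGATGNAA, the core of the C/EBP-ATF response element that ATF4 can bind, for CACGTG, an E-box, and for GCATGCGC, an NRF1 core, and no printed matches of different motifs overlap. TGATGNAA was present in 5 of 12 cytosolic promoters (41.7%, *Aars*, *Gars*, *Iars*, *Tars* and *Yars*), in 0 of 14 mitochondrial promoters and in 4.51% of the 27025 genes of the table. CACGTG was in 4 cytosolic promoters (*Aars*, *Farsb*, *Iars* and *Tars*), in 1 mitochondrial promoter (*Ears2*) and in 8.09% of all genes. GCATGCGC was in 0 cytosolic promoters, in 3 mitochondrial promoters (*Rars2*, *Vars2* and *Wars2*) and in 3.05% of all genes. A match is a description of letters and not evidence of a bound site, and nothing follows from its absence in this window. The promoters of *Gars*, *Iars*, *Rars2* and *Vars2*, members with a match that were called in 3 of the 4 comparisons, are shown 5′ to 3′ with matches in capitals. The *Gars* promoter lies at chr6:55037751-55038050 on the plus strand. The *Iars* promoter lies at chr13:49681880-49682179 on the plus strand. The *Rars2* promoter lies at chr4:34614707-34615006 on the plus strand. The *Vars2* promoter lies at chr17:35667543-35667842 on the minus strand. In *Gars* and *Iars* the capitals mark the reverse complement of TGATGNAA and, in *Iars*, CACGTG upstream of it, and in *Rars2* and *Vars2* they mark GCATGCGC.
Gars: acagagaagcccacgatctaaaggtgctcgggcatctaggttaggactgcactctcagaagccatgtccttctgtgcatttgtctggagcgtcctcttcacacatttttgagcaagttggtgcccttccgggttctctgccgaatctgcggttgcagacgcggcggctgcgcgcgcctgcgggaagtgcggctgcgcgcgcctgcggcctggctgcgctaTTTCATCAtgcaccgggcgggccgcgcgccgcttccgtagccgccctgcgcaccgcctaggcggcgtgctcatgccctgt
Iars: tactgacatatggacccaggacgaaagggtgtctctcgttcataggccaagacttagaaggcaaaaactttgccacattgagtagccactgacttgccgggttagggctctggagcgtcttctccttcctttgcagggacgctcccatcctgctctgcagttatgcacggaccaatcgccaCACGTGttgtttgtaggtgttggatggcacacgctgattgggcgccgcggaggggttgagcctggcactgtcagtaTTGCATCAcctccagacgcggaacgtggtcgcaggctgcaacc
Rars2: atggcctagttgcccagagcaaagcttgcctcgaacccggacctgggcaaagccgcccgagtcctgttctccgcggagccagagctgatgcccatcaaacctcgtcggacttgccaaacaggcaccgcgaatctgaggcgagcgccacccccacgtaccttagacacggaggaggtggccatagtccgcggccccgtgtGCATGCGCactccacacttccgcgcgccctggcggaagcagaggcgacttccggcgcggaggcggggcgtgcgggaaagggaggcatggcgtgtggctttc
Vars2: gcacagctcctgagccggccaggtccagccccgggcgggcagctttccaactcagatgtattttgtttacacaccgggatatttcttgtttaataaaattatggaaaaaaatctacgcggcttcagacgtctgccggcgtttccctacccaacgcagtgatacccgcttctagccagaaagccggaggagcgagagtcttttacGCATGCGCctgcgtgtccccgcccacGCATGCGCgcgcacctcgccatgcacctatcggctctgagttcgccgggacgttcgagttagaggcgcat

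Finally, both clones were pooled as PKO, as in the design of the study, in a fit of 3 groups. In PKO against TM6, 6 cytosolic members were higher and 1 lower, and 4 mitochondrial members were higher and 1 lower, beside 25.7% of all tested genes called, 13.5% higher and 12.2% lower. The medians were 0.32 for cytosolic and 0.43 for mitochondrial members. In the same fit rho0 against TM6 gave 8 cytosolic and 7 mitochondrial DEGs, beside 29.3% of all tested genes. Pooling raised the biological coefficient of variation of the fit from 0.0837 to 0.248.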

How the data were processed

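RNA was depleted of ribosomal RNA and sequenced as stranded paired-end libraries, with technical duplicates merged by the authors. Values were made by the authors with RSEM 1.2.25 and bowtie2 against RefSeq transcripts of mm10 (GRCm38). The deposited gene matrix holds expected counts (estimated counts), which were rounded to whole numbers here, and the deposited per-library files give TPM per transcript, which were summed to genes. In R 4.3.3, edgeR 4.0.16 filtered genes (filterByExpr, minimum count 10), scaled libraries by TMM and fitted 12 libraries as 4 lines with the quasi-likelihood test, and Benjamini-Hochberg adjustment ran over 14026 genes. Normalized counts use the same scaling. Standard errors are the log2 fold change divided by the root of F. The members and gene lists were chosen with earlier results of these data known. Values in every library are given for the 5 members of each set with the largest absolute log2 fold change called in each comparison with TM6, the 3 called between the clones, *Gars*, *Kars*, *Hars*, *Hars2* and, chosen after its values were seen, *Farsa*. Of the other lists, the 2 largest changes in each direction are named, and *Xpot*, *Gatb*, *Aimp2* and *Ddit3* were named after their values were seen. Calls were checked on simulated counts and under 11 alternatives, with DESeq2 1.42.0 as another test. Protein identity was not analysed here.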

Additional observations from a re-analysis of the deposited data

Results flagged for a closer look

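The difference from TM6, on the same TM6 libraries, was not alike in PKO-1 and PKO-6 for 16 of 36 synthetases (44.4%) by the direct edgeR test of PKO-1 against PKO-6, beside 29.1% of all tested genes. Lower in PKO-1 by log2 fold change were *Cars* (-0.51), *Eprs* (-0.55), *Gars* (-0.58), *Iars* (-1.02), *Lars* (-0.88), *Mars* (-0.66), *Nars* (-0.72), *Rars* (-0.83), *Sars* (-1.01), *Tars* (-0.62), *Wars* (-0.97), *Yars* (-0.59) and *Fars2* (-0.67). Higher in PKO-1 were *Hars* (0.66), *Kars* (0.73) and *Lars2* (1.85). With chromosome medians removed, *Mars* (-0.477), *Tars* (-0.481), *Yars* (-0.428), *Kars* (0.415) and *Fars2* (-0.317) were no longer called, and *Aars* (-0.501) was. The call of *Cars* was lost without PKO-6 replicate 1 (-0.499). For 7 of the 16 the estimates against TM6 had opposite signs in the clones, with PKO-1 and PKO-6 at 0.30 and -0.36 for *Hars*, -0.49 and 0.52 for *Iars*, -0.23 and 0.43 for *Mars*, -0.10 and 0.91 for *Sars*, -0.029 and 0.59 for *Tars*, -0.13 and 0.46 for *Yars*, -0.03 and 0.64 for *Fars2*. Of these, 3 had the same sign in both clones with chromosome medians removed, at -0.117 and -0.704 for *Hars*, 0.204 and 0.685 for *Tars*, 0.244 and 0.561 for *Fars2*. The PKO-1 values of *Tars* and *Fars2* without that removal lay within their SE of 0. Each clone is 1 isolate, so differences between clones cannot be told apart from other differences between isolates. The value of *Lars2* rests on PKO-1 libraries that differ from each other more than those of other members. Groups of 3 libraries were not tested for outlying samples, but counts of PKO-6 replicate 3 differed from replicates 1 and 2 by a chi-square per degree of freedom of 75.83 and 127.32, against 23.31 between those 2.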

How the results depend on the processing

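In the order rho0, PKO-1 and PKO-6 against TM6 and PKO-1 against PKO-6, requiring an absolute log2 fold change above 1 left 6, 0, 5 and 2 cytosolic and 0, 1, 0 and 1 mitochondrial DEGs, and an adjusted p below 0.01 alone gave 18, 13, 17 and 16 and 11, 9, 10 and 7. Of all tested genes, 21, 16.2, 21.7 and 13.9% were called above 1 and 62.1, 54.3, 61 and 50% by adjusted p alone. Removal of chromosome medians left 12, 0, 12 and 11 and 9, 4, 8 and 1, beside 38.5, 28.7, 38.4 and 25.9% of all tested genes, with set medians of 0.63, 0.11, 0.50 and -0.49 and 0.41, 0.24, 0.34 and -0.004. The threshold results rest on the rule itself, and for the chromosomes the cause was not tested. Scaling by total counts moved the PKO-6 medians to 0.55 and 0.46 and the mitochondrial median between clones to -0.009, and leaving out *Rn45s*, which held 12.2% to 19.6% of counts, moved the cytosolic PKO-1 median to 0.13. Leaving out *Lars2*, an alternative chosen after seeing the data, gave 0.45, 0.26, 0.50 and 0.018 for the mitochondrial medians and 1 DEG between the clones. With 1 library left out in turn, cytosolic medians ranged over 0.53 to 0.63, 0.13 to 0.17, 0.44 to 0.52 and -0.58 to -0.52, and mitochondrial medians over 0.39 to 0.47, 0.28 to 0.33, 0.34 to 0.43 and -0.035 to 0.089. Counts of DEGs were in the range of 11 to 13, 4 to 6, 11 to 14 and 13 to 15 for cytosolic and 7 to 8, 4 to 6, 7 to 9 and 2 to 3 for mitochondrial members. DESeq2 size factors gave 11, 5, 12 and 14 cytosolic and 7, 5, 8 and 2 mitochondrial DEGs, and the DESeq2 Wald test gave the same numbers. Both ended the calls of *Rars* and *Rars2* in PKO-1 and *Wars2* in rho0 and called *Iars* and *Cars2* lower in PKO-1. Of 144 pairs of member and comparison, 18 changed their call with a library left out, each with an estimate from all libraries within 0.085 of the fold change threshold. Same-numbered cultures deviated together only in part, with 10 of 18 correlations above 0.1 (-0.385 to 0.25) and 5 of 12 libraries nearest to their own number, so the numbers were not used for pairing. With the replicate block, DEGs numbered 11, 5, 12 and 14 for cytosolic and 8, 5, 8 and 2 for mitochondrial members, equal to the values without it. No named member changed direction with its call. These libraries limit statements to 1 clone per derived line, and differences near a log2 fold change of 0.5 depend on single libraries, scaling and test.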
